A study of Mus musculus with 2 samples.

Results

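The collagen chains are the gene products that fold, in threes, into the collagen proteins of the extracellular matrix. They were taken as every feature whose symbol reads Col, a number, a and a second number, and 44 of the 31054 features in the files had such a symbol. By the structure of the proteins, 11 chains were grouped as fibrillar, 9 as network-forming, 9 as FACIT (fibril-associated collagens with interrupted triple helices) and 15 as other. RNA was counted in stromal cells sorted from tumours of p16-CreERT2/R26-LSL-tdTomato mice that carried an allograft of pancreatic ductal adenocarcinoma (PDAC), a cancer with a collagen-rich stroma. All animals had this genotype, in which the p16 locus drives an inducible Cre and a recombined cell makes the red reporter tdTomato. Flow sorting split the cells by tdTomato into a Tom positive and a Tom negative fraction, and each gave 1 library, so no replicate check of any difference between the sorts exists. How many animals or tumours each library pooled, their age and the induction schedule were not given in the sources used here.

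Fibrillar collagens (types I, II, III, V, XI, XXIV and XXVII) assemble into the rope-like fibrils that give tissue its tensile strength, and FACIT chains attach to the surface of those fibrils. Type IV chains form the sheet of the basement membrane under endothelium and epithelium and around mural cells, and type VIII and X chains form hexagonal lattices. Type VI chains make beaded filaments, type VII the anchoring fibrils of skin, types XV and XVIII carry sugar chains and sit at basement membranes, and types XIII, XVII, XXIII and XXV span the cell membrane. In pancreatic carcinoma most fibrillar collagen is laid down by fibroblasts.

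Promoter windows are shown for 3 chains. Col1a2 and Col3a1 are, with Col1a1, the 3 highest chains in fibroblast-like cells, and Col4a1 and Col4a2, which make the most widespread type IV collagen, are the 2 highest in blood endothelial cells. In the GRCm38 annotation Col4a1 (chromosome 8, minus strand, 11198423 to 11312826) and Col4a2 (plus strand, 11312805 to 11449287) are head to head with their first 22 bases in common. Col4a4 and Col4a3 on chromosome 1 stand head to head with 71 bases between them, and Col4a6 and Col4a5 on chromosome X with 1308 bases. The sequences come from RefSeq (GRCm38.p6) and run from 250 bases before to 50 bases after each gene's RefSeq start, and 35 of the 44 chains had at least 1 such window. In the first and second, capitals mark the letters CCAAT or TATAAA on either strand, and in the third the 22 bases shared by Col4a1 and Col4a2.
Col1a2, chr6:4505368-4505667, plus strand: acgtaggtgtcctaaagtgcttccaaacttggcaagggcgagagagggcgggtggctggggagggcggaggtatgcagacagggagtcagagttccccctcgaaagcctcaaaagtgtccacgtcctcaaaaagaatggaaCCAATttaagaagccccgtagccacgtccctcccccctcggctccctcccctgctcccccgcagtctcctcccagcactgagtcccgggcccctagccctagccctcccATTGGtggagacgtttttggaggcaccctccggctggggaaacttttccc
Col3a1, chr1:45311288-45311587, plus strand: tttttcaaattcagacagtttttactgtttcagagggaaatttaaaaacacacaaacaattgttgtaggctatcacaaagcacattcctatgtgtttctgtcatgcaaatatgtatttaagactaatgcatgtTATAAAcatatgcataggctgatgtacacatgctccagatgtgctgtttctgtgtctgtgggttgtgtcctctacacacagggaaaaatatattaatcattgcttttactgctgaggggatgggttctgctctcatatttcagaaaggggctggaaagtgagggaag
Col4a2, chr8:11312555-11312854, plus strand: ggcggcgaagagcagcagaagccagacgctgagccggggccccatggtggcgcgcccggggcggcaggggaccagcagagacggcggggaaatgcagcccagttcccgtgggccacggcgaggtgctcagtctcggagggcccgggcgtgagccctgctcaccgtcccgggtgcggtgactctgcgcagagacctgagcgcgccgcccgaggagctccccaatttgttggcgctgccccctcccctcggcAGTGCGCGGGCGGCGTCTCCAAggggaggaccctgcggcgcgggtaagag
The Col1a2 window held 2 matches of CCAAT, and the Col3a1 window no CCAAT and 1 match of TATAAA. The Col4a2 window had a GC content of 73.7%, against 61.0% for Col1a2 and 37.7% for Col3a1. CCAAT was found on either strand in 34.2% of the 38 collagen windows and in 37.4% of all 32851 windows. The GC box GGGCGG was found in 60.5% of the collagen windows and in 35.7% of all windows, and TATAAA in 13.2% and 13.6%. These are matches of letters only.

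The Tom positive library held 7568 barcodes and the Tom negative one 13604, with 4302 and 6580 kept as cells. The files share 3660 barcodes, and 234 and 1233 of the kept cells carried a barcode that the other library held with over 5 times the UMIs, or that had under 5000 UMIs in both, called doubted here. Cells were clustered without the collagen chains, so that the chains did not define the classes, and clusters were named from marker lists. The tdTomato transcript reached 407 CPM (counts-per-million) in Tom positive fibroblast-like cells and 17.0 CPM in Tom negative ones. The gap differed between classes, with 1069 against 45.3 CPM in phagocytes and 209 against 102 CPM in endothelial cells. Levels below are summed unique molecular identifiers (UMIs) of a class divided by all its UMIs, in CPM. A UMI is read at the 3′ end and counts transcripts, not their length, and capture can differ between genes, so levels of different chains are not per length. Intervals are exact 95% intervals and cover counting error only.

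Fibroblast-like cells (1552 Tom positive and 2520 Tom negative) carried the most collagen RNA: the 44 chains took 7.84% of their UMIs in the Tom positive library and 6.62% in the Tom negative one. Mural cells, the pericytes and smooth muscle of vessel walls (47 and 159 cells), followed with 3.06% and 2.24%. Endothelial cells (464 and 117) had 0.748% and 0.856%, and mononuclear phagocytes (1411 and 1949) had the least, 0.157% and 0.180%. Fibroblast-like, mural, endothelial and phagocyte cells thus fell in the same order in both libraries. Neutrophils (289 and 541) had 0.471% and 0.446%, with a median of only 3564 and 2745 UMIs per cell.

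The small classes rested on few cells. Lymphatic endothelial cells (147 and 34) had 0.425% and 1.88%, but the median Tom negative cell had 0.521%, and 22 of the 34 carried doubted barcodes. The 12 without them still had 1.98% over their summed UMIs, with 563 CPM of the fibroblast gene Dcn against 156 CPM in Tom positive lymphatic cells, and the part of fibroblast RNA in this was not tested. Carcinoma-like cells (29 and 42) had 0.517% and 0.211%, with per-cell medians of 0.180% and 0.225%. That class had Krt8 at 2009 and 1657 CPM, while Epcam, a defining epithelial marker, was at 11.2 and 4.94 CPM. Epcam thus fell short of the 50 CPM used for a detected marker, as did Cldn4, Cldn7 and Lcn2 in both libraries. In all, 9 and 7 of the 13 markers of this class reached 50 CPM. All 16 endothelial, all 8 lymphatic and all 10 neutrophil markers were at 50 CPM or more in both libraries, and 13 of 14 mural markers. Phagocytes had 26 and 25 of 36 markers and fibroblast-like cells 21 and 19 of 27.

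**Figure D1:**
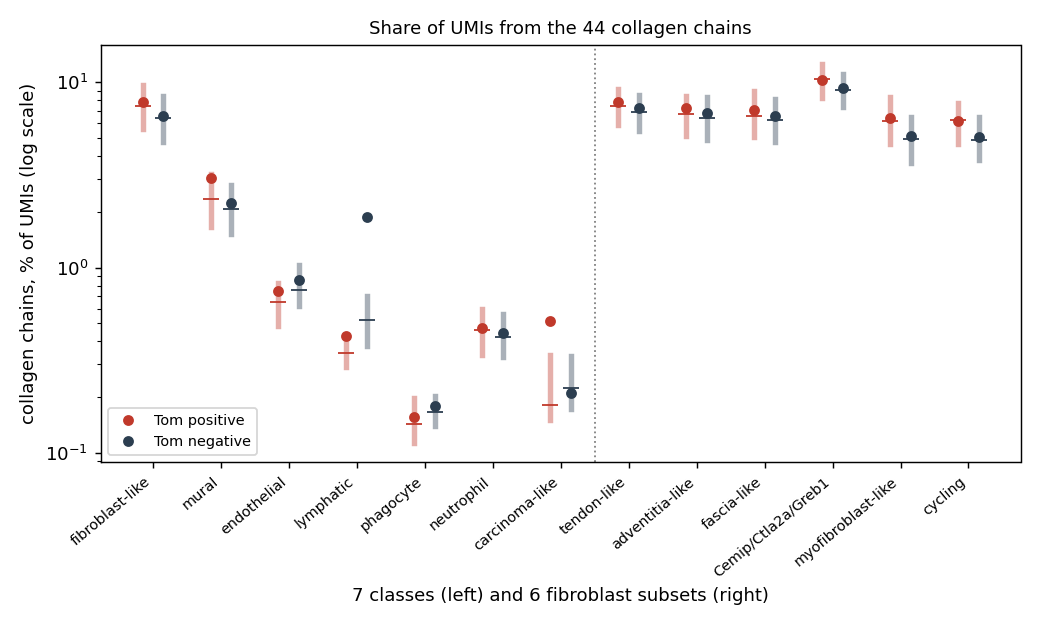
Share of UMIs from the 44 collagen chains (log scale) in 7 classes, left of the dotted line, and 6 fibroblast subsets, right of it. Dots are the share over summed UMIs, dashes the median cell and bars the middle 50% of cells. Tom negative lymphatic cells (1.88% against a median of 0.521%) and Tom positive carcinoma-like cells (0.517% against 0.180%) stand above most of their own cells.

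The kinds of collagen changed with the class. Fibrillar chains made up 90.3% and 89.4% of the collagen UMIs of fibroblast-like cells, while network chains made up 1.54% and 1.65%. In endothelial cells network chains came first: they took 66.0% and 59.9% and fibrillar chains 14.98% and 22.3%. Mural cells lay between, with 62.1% and 50.6% fibrillar, 17.5% and 22.9% network and 18.2% and 24.3% other chains. FACIT chains were at most 6.81% of the collagen UMIs in any of the 7 classes.

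A chain was counted as measured when its highest class reached 10 CPM in both libraries, which 29 of the 44 did. Of these 29, 15 were highest in fibroblast-like cells in both libraries, against 8.5% of all 11460 features measured. Mural cells were highest for 6 chains (8.33% of all features), endothelial cells for 3 (7.62%) and lymphatic cells for 2 (10.4%). No chain was highest in phagocytes (7.99% of all features), neutrophils (11.8%) or carcinoma-like cells (11.9%) in both libraries. Another 3 chains, Col11a1, Col25a1 and Col27a1, had a different highest class in each library. Of the 15 chains below the limit, 5 were FACIT and 5 other chains, and 3 network (Col4a3, Col4a6 and Col10a1) and 2 fibrillar (Col2a1 and Col11a2, both known from cartilage).

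**Figure D2:**
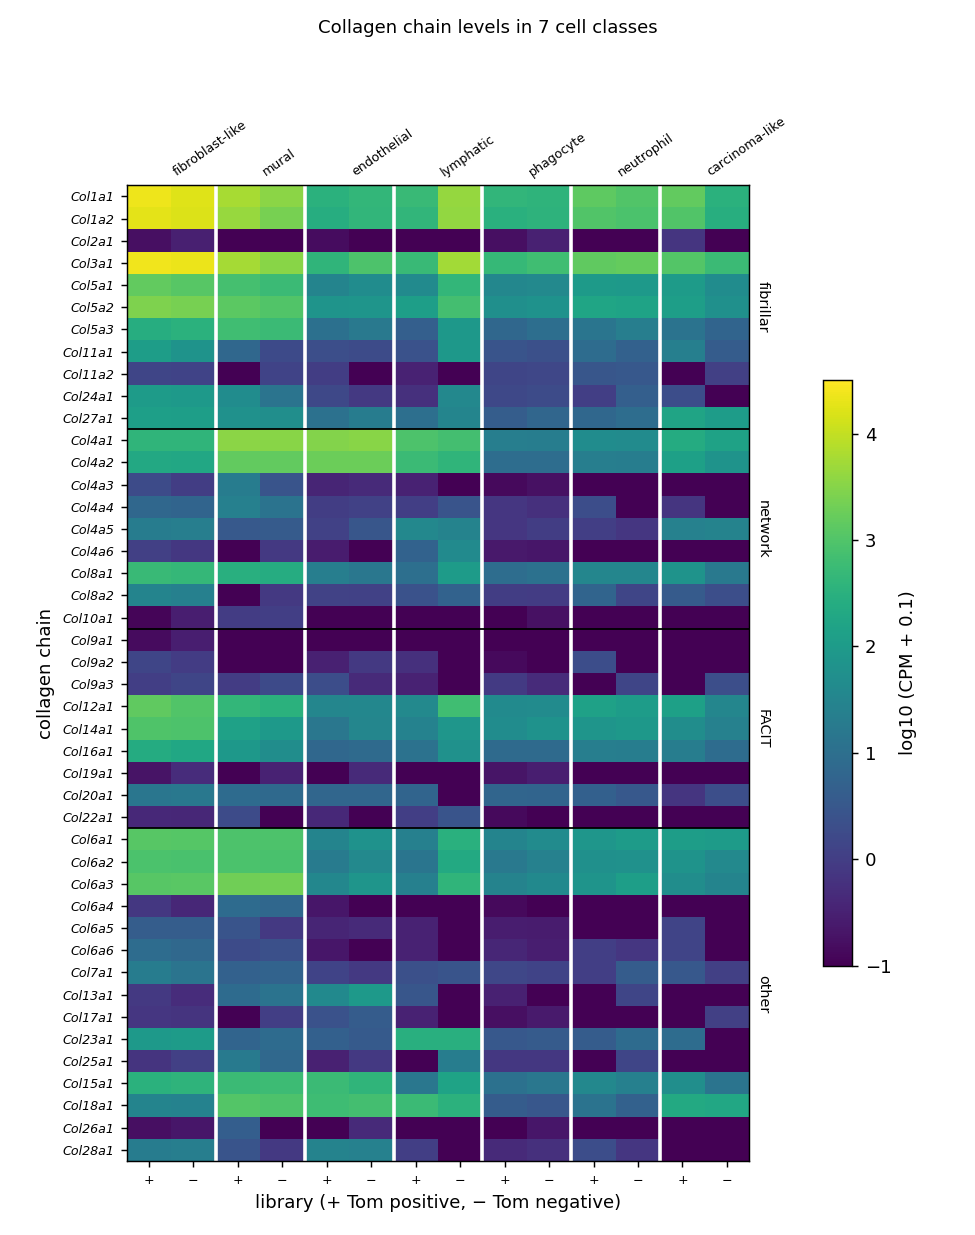
Level of each of the 44 chains, as log10 of CPM plus 0.1, in 7 classes of the Tom positive (+) and Tom negative (−) library, with chains grouped by kind. Col1a1, Col1a2 and Col3a1 are brightest in fibroblast-like cells, Col4a1 and Col4a2 in mural and endothelial cells, Col13a1 in endothelial and Col23a1 in lymphatic cells.

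Col3a1, Col1a1 and Col1a2, the chains of types III and I, stood at 24348, 22542 and 19078 CPM in Tom positive fibroblast-like cells and at 21947, 16980.4 and 16142 CPM in Tom negative ones. Their next class was mural in the Tom positive library, with 6082 CPM for Col1a1, which was 3.71-fold lower. In the Tom negative library the small lymphatic class came second for all 3, with 4237 CPM for Col1a1. Type V chains, which start fibrils of type I, were led by Col5a2 (2697 and 2306 CPM) and Col5a1 (1480.1 and 1176 CPM). Col24a1, a minor fibrillar chain, had 106 and 93.5 CPM in fibroblast-like cells. Col5a3, the third type V chain, differed from its partners: mural cells had 653 and 551 CPM, more than the 271 and 329 CPM of fibroblast-like cells.

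All 4 measured FACIT chains were highest in fibroblast-like cells. Col12a1, which binds type I fibrils in tissue under load, had 1431 and 1009.9 CPM, and Col14a1, its close relative, 984 and 919 CPM. Col16a1 had 240.3 and 186 CPM and Col20a1 14.2 and 15.7 CPM. Among the network chains only Col8a1 (538 and 454 CPM) and its partner Col8a2 (30.4 and 24.2 CPM) were highest there. Type VI chains were shared with vessel walls: Col6a1 had 1198 and 1111 CPM in fibroblast-like cells, while mural cells had 938 and 917 CPM, and Col6a3 1172 and 1248 CPM against 2064 and 2175 CPM.

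Basement membrane chains were highest in the vascular classes. Col4a1 reached 3517 and 3352 CPM in mural and 3034 and 3251 CPM in endothelial cells, against 397 and 391 CPM in fibroblast-like cells. Col4a2 was highest in endothelial cells, at 1878 and 1855 CPM, with 1499 and 1495.5 CPM in mural cells. Mural and endothelial levels of these 2 chains differed by at most 1.25-fold, and which of them was higher was the same in both libraries. The ratio of Col4a1 to Col4a2 UMIs was 2.35 (2.22 to 2.48) and 2.24 (2.18 to 2.31) in mural cells. In endothelial cells it was 1.62 (1.59 to 1.64) and 1.75 (1.69 to 1.81), so the proportion of the partners differed between these classes in both libraries by more than counting error.

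Of the 7 classes, vascular cells were highest for the multiplexin chains (types XV and XVIII) too. Col18a1, whose end fragment is endostatin, an inhibitor of angiogenesis, had 1067 and 903 CPM in mural, 632 and 734 CPM in endothelial and 562 and 341 CPM in lymphatic cells, against 30.0 and 27.6 CPM in fibroblast-like cells. Col15a1 had 568 and 584 CPM in mural, 567 and 402 CPM in endothelial and 328 and 385 CPM in fibroblast-like cells. Myofibroblast-like cells, a fibroblast subset described below, had 836 and 850 CPM of it, more than any class. In lymphatic cells the libraries differed, with 15.4 and 155 CPM of Col15a1. Mural and endothelial levels of Col15a1 were the same within counting error in the Tom positive library. Of the 7 classes, mural cells were highest for the low type IV chain Col4a4, at 24.6 and 12.3 CPM. Fascia-like fibroblasts, also described below, had 16.7 and 12.8 CPM of Col4a4.

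Of the 7 classes, an endothelial one was highest for some low chains. Col13a1, a transmembrane chain, had 41.1 and 91.7 CPM in endothelial cells and at most 12.5 CPM in any other class. Col23a1, another transmembrane chain, had 290.3 and 296 CPM in lymphatic cells, 88.4 and 103 CPM in fibroblast-like cells and 4.79 and 3.50 CPM in blood endothelial cells. Without doubted barcodes its Tom negative lymphatic level was 287 CPM. Col4a5, a type IV chain, had 37.4 and 28.9 CPM in lymphatic and 26.2 and 28.6 CPM in carcinoma-like cells, and the Tom negative pair was indistinguishable at this depth. Col28a1 had 28.6 and 26.3 CPM in endothelial and 20.5 and 22.1 CPM in fibroblast-like cells. The fibroblast-like class pools subsets, described below, that differ in these 2 chains. Fascia-like cells alone had 44.4 and 52.1 CPM of Col4a5, more than lymphatic cells. Adventitia-like cells alone had 42.0 and 79.9 CPM of Col28a1, more than endothelial cells.

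Within the blood endothelium, sub-clusters differed in these chains. Col13a1 was highest in the sub-cluster led by Ptn, Ccl21a and Ramp3, which also had the tip cell genes Esm1 and Kcne3 among its leading genes, at 237 and 204 CPM in 38 and 29 cells. The sub-cluster led by Ackr1, F5 and Sele, genes of venules, had 11.0 CPM of Col13a1 in 73 Tom positive cells. Another that the marker lists named venous-type, led by Dkk2, Ptgs2 and Rbfox1, had 45.9 and 11.1 CPM. Col28a1 peaked elsewhere, in the sub-cluster led by Chga, Pgf and Sntg2, at 115 and 94.1 CPM. The marker lists named that sub-cluster tip-type, like the one led by Ptn, but its Col13a1 was 9.08 and 12.5 CPM. Col18a1 was highest in the sub-cluster led by Nts, Gja5 and Nebl, Gja5 being an arterial junction gene, at 1145 and 1277 CPM. Col18a1 was 65.7 CPM in 48 Tom positive cells of the sub-cluster led by Lpl, Timp4 and Fhod3. The marker lists named both of these sub-clusters capillary-type. A small endothelial sub-cluster led by Rgs5 (16 and 6 cells) had 2336 and 2457 CPM of Col1a1 together with 1021 and 2192 CPM of Rgs5, a pericyte marker, and the part of mixed cells in this was not tested.

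Among mural cells Col4a1 ranged from 2672 to 5422 CPM over 6 sub-clusters and both libraries. The low type IV chains Col4a3 and Col4a4 ranged from 0 to 122 CPM and from 0 to 101.7 CPM. Col1a1 was more uneven: the sub-cluster led by Pcdh9, Cxcl9 and Mcc (7 and 11 cells) had 16247 and 8825 CPM, and the others at most 4056 CPM. That sub-cluster also had 974 and 744 CPM of Dcn, against at most 169.9 CPM in the others.

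Free fibroblast RNA can give other classes collagen UMIs, so levels were set against a carry-over scale. For each class the scale was the median, over 8 fibroblast genes that are not collagens, of the class level divided by the fibroblast-like level. It was 1.99% and 3.07% in phagocytes, 6.39% and 8.24% in neutrophils, 1.64% and 4.44% in endothelial and 9.01% and 6.36% in mural cells. Lymphatic cells had 2.39% and 17.1% and carcinoma-like cells 3.77% and 2.36%. The 8 genes spread widely in some classes. They ran from 2.86% to 32.0% in Tom negative lymphatic cells. In the Tom positive library they ran from 6.20% to 22.0% in mural and from 1.01% to 9.32% in carcinoma-like cells. A chain counted as above carry-over when it exceeded 3 times its scaled fibroblast level in both libraries, at 10 CPM or more. In phagocytes 0 of 12 chains passed, against 98.6% of all features there, and in neutrophils 0 of 16, against 89.8%.

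In phagocytes the 3 highest chains were those of fibroblasts, with Col1a1 at 413 and 386 CPM. Col14a1 was above 2 times its carry-over level in both libraries, at 2.46 and 2.24 times, and Col4a1 was at 2.82 and 1.81 times. In a phagocyte cluster led by Bcl2a1d, Mgl2 and C1qa (49 and 108 cells) Col14a1 was 55.2 and 69.6 CPM, or 3.52 and 3.02 times, and this cluster was picked out after its values were seen. Endothelial cells had 7 of 19 chains above carry-over (98.7% of features), namely Col4a1, Col4a2, Col13a1, Col15a1, Col18a1, Col27a1 and Col28a1. Lymphatic cells had 5 of 19 (93.7%): Col4a1, Col4a2, Col4a5, Col18a1 and Col23a1. Mural cells had 15 of 20 (97.7%), among them Col5a1 and Col5a2. Col1a1 (2.99 and 3.21 times), Col1a2 (2.59 and 2.34) and Col3a1 (2.57 and 2.33) did not pass there. Over the other settings tried, 13 to 19 chains passed in mural cells.

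Carcinoma-like cells had 5 of 17 chains above carry-over, against 98.6% of features. These were Col4a1 at 242 and 148 CPM, Col4a2 at 132 and 65.2 CPM, Col4a5, Col18a1 at 214 and 195 CPM and Col27a1, a fibrillar chain known from cartilage, at 163 and 111 CPM. Without doubted barcodes Tom negative carcinoma-like cells had 149 CPM of Col4a1, 194 CPM of Col18a1 and 110.4 CPM of Col27a1. Col1a1 was at 1.76 and 0.815 times its carry-over level there.

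**Figure D3:**
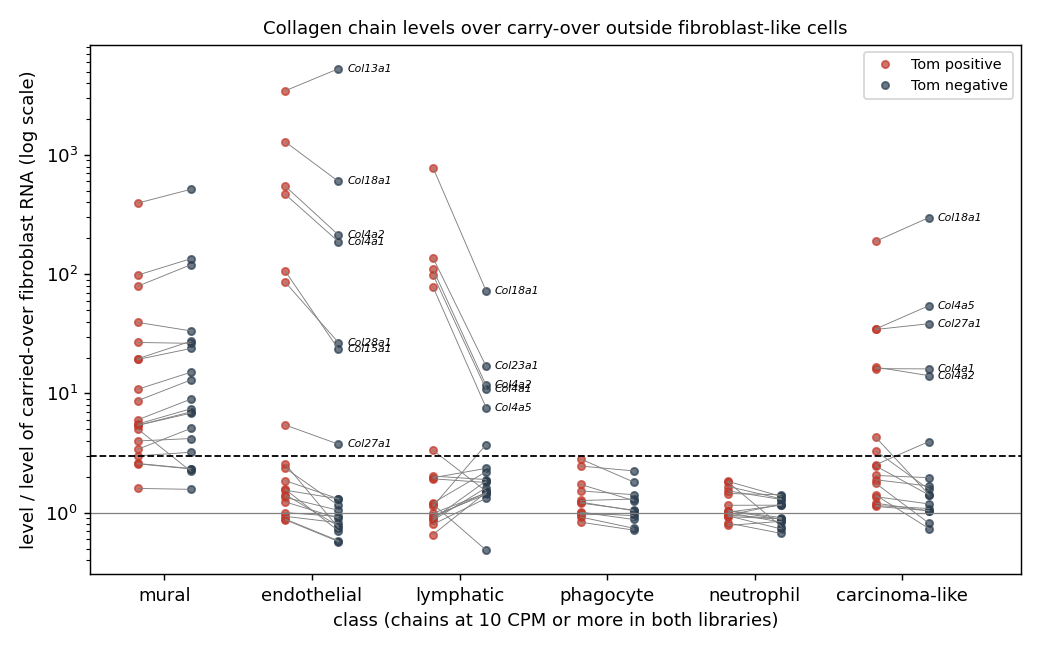
Level of each chain divided by the level that carried-over fibroblast RNA would give (log scale), for chains at 10 CPM or more in both libraries of a class, with lines joining the Tom positive and Tom negative value of a chain. The dashed line is the limit of 3. All points of phagocytes and neutrophils lie below it.

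Fibroblast-like cells fell into 6 subsets, named tendon-like, adventitia-like, fascia-like, myofibroblast-like and cycling from their markers, and 1 by its leading markers Cemip, Ctla2a and Greb1. All 3 markers of each subset reached 50 CPM in both libraries, and Greb1 was higher in Tom negative adventitia-like cells (60.1 CPM) than in its own subset (53.4 CPM). The last subset had the highest collagen share, 10.3% and 9.33% of UMIs. Tendon-like (7.82% and 7.24%), adventitia-like (7.24% and 6.85%) and fascia-like cells (7.08% and 6.62%) followed in the same order in both libraries. Myofibroblast-like cells had 6.42% and 5.14% and cycling cells 6.15% and 5.05%. Of 28 chains at 10 CPM or more, 27 differed by 1.5-fold or more between the same 2 subsets in both libraries, against 54.7% of all features. The highest subset was the same in both libraries for 26 of the 28 chains, and the lowest for 25.

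The subset of Cemip, Ctla2a and Greb1 was highest in both libraries for 5 chains, the major fibrillar chains among them. It had 31104 and 25460 CPM of Col1a1, 26598 and 25090.4 CPM of Col1a2 and 33305 and 31968 CPM of Col3a1. Cycling cells had the lowest Col1a1, at 16278 and 12499.9 CPM. Col24a1 reached 189.9 and 187 CPM in the Cemip subset and 38.8 and 70.5 CPM in adventitia-like cells. Col5a1 was the exception to the 27, with 1.65-fold in Tom positive and 1.49-fold in Tom negative cells between the Cemip and fascia-like subsets.

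Tendon-like fibroblasts, with Fmod, Comp and Thbs4 as markers, were set apart by Col11a1, Col8a1 and Col8a2. Col11a1, a fibrillar chain of cartilage and of thin fibrils, had 292 and 235 CPM there and 2.72 and 1.45 CPM in fascia-like cells, 107-fold and 163-fold lower. Col8a2 had 90.8 and 94.6 CPM and at most 9.25 CPM in the other non-cycling subsets. Col8a1 had 1122 and 963 CPM against 73.7 and 95.8 CPM in fascia-like cells. Col16a1 was highest there too, at 311 and 271 CPM.

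Adventitia-like fibroblasts, with C7, Sfrp4 and Abca8a, were highest of the subsets for Col4a1 and Col4a2. Col4a1 was 1218 and 1147 CPM, against 159 and 151 CPM in tendon-like cells, a 7.64-fold and 7.62-fold difference. Col4a2 was 633 and 581 CPM. Col18a1 was 60.5 and 61.5 CPM, highest of the subsets, and Col28a1 42.0 and 79.9 CPM. Endothelial and mural markers stayed low in these cells, with Cdh5 at 5.08 and 2.12 CPM and Rgs5 at 2.42 and 4.38 CPM.

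Fascia-like fibroblasts, with Dmkn, Sema3e and Cd55, were highest for Col14a1 (1786 and 1711 CPM), Col4a5 (44.4 and 52.1 CPM), Col6a6 (20.6 and 15.6 CPM) and Col4a4 (16.7 and 12.8 CPM). They were also lowest in both libraries for 11 of the 28 chains, more than any other subset. Col7a1, Col8a2, Col11a1 and Col23a1 were each below 5 CPM there in both libraries.

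Myofibroblast-like cells, with Stra6, Tnc and Acta2, were lowest for Col14a1. It was 162 and 158 CPM, 11.0-fold and 10.9-fold lower than in fascia-like cells, while Col12a1 was 1993 and 1257 CPM. The ratio of Col12a1 to Col14a1 UMIs accordingly ran from 0.225 to 12.3 over the subsets and libraries. This subset was highest in both libraries for 9 chains. They included Col7a1 (80.4 and 34.4 CPM), Col23a1 (210.5 and 230 CPM), Col15a1 (836 and 850.2 CPM), Col5a3 (643 and 633 CPM) and the type VI chains Col6a1, Col6a2 and Col6a3 (2023 and 2038 CPM). Rgs5 was 3.60 and 5.50 CPM in these cells and 3648 and 3655 CPM in mural cells. Other mural markers were higher here than in any other subset, namely Acta2 (1021 and 1437 CPM), Actg2 (84.1 and 104 CPM) and Notch3 (26.8 and 30.8 CPM). Mural cells had 3195 and 3444 CPM of Acta2 and 753 and 647 CPM of Notch3.

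Among pairs of chains that assemble with each other, Col1a1 and Col1a2, Col4a1 and Col4a2, Col5a1 and Col5a2, and Col6a1 and Col6a2 had ratios that varied less than the levels of either chain. Over 6 subsets and 2 libraries, Col1a1 to Col1a2 ran from 0.931 to 1.27 and Col6a1 to Col6a2 from 1.25 to 1.39. Col5a1 to Col5a2 ran from 0.425 to 0.602 and Col4a1 to Col4a2 from 1.41 to 2.26. Col8a1 to Col8a2 ran wider, from 10.2 to 82.7, although both are known to form type VIII lattices. The level of each chain ran wider still, from 73.7 to 1122 CPM for Col8a1 and from 1.30 to 94.6 CPM for Col8a2. Other pairs varied widely too where both chains had UMIs: Col4a5 to Col4a6 ran from 8.73 to 129 and Col4a4 to Col4a3 from 2.29 to 20.3, with Col4a6 at no more than 3.81 CPM and Col4a3 at no more than 7.16 CPM.

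**Figure D4:**
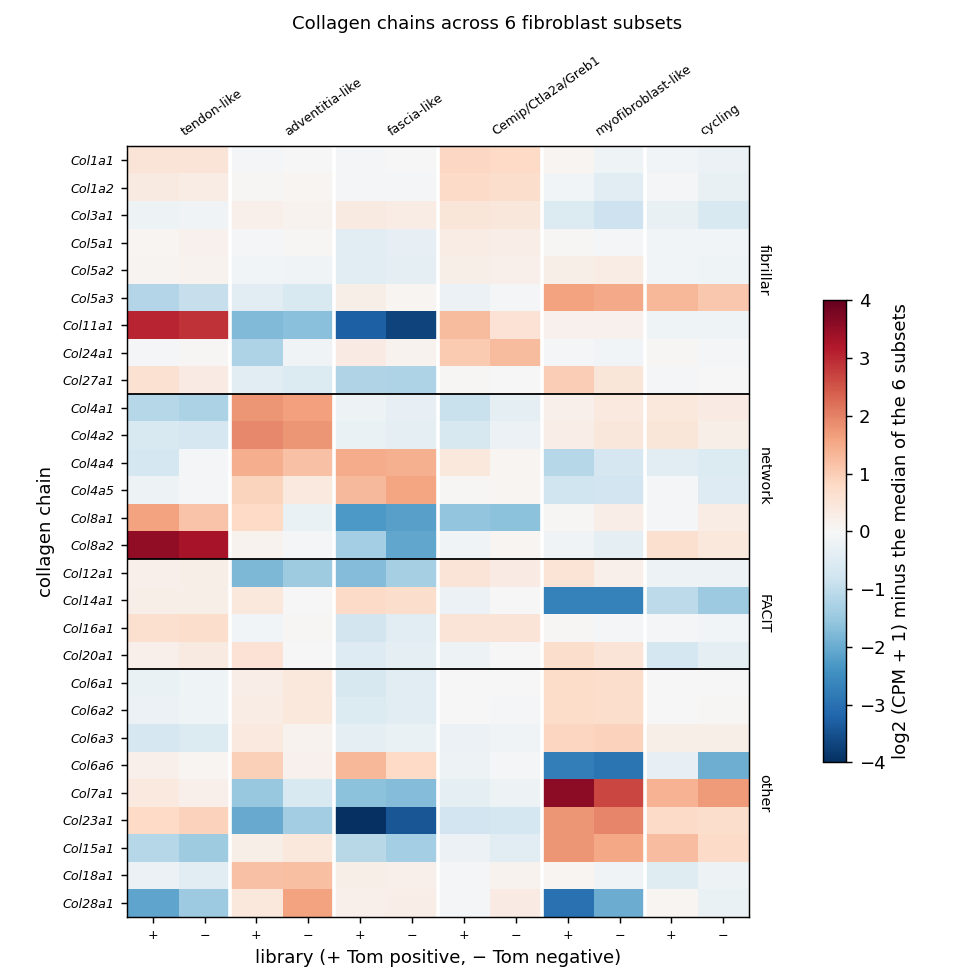
Chains at 10 CPM or more across the 6 fibroblast subsets of the Tom positive (+) and Tom negative (−) library, as log2 of CPM plus 1 minus the median of the 6 subsets in that library. Red blocks mark Col11a1 and Col8a2 in tendon-like, Col4a1 and Col4a2 in adventitia-like and Col7a1, Col23a1 and Col5a3 in myofibroblast-like cells.

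Few chains passed the limit between the sorts in fibroblast-like cells. Of 26 chains at 10 CPM or more in either library, 2 were at least 1.5-fold higher in Tom positive cells, against 0.772% of 8681 features, and 0 were lower, against 1.24%. Col11a1 was at 113 and 67.7 CPM, 1.67-fold (1.61 to 1.73) higher. Col7a1 was 20.4 and 13.1 CPM, 1.56-fold (1.45 to 1.69) higher. The libraries also differed in subset makeup: tendon-like cells, where Col11a1 is highest, made up 28.9% of the fibroblast-like cells in the Tom positive and 21.9% in the Tom negative library. With the 6 subsets weighted equally only Col7a1 passed (1.74-fold higher, against 0.482% of features), none passed as lower (0.711% of features), and the log2 difference of Col11a1 was 0.36 in place of 0.73.

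The other fibrillar and FACIT chains lay below the limit. Col1a1 was 1.33-fold (1.32 to 1.33) higher in Tom positive fibroblast-like cells, Col1a2 1.18-fold, Col3a1 1.11-fold and Col12a1 1.42-fold (1.40 to 1.43). Over the 26 chains the median log2 difference was 0.11, and over all 8681 features -0.03. With subsets weighted equally, the log2 difference of Col1a1 was 0.28 in place of 0.41 and that of Col1a2 0.11 in place of 0.24. The median over the 26 chains was then 0.06. The counting intervals hold no spread between animals, so a small ratio cannot be told apart from a difference between the 2 libraries.

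Within subsets, the differences passing 1.5-fold were few. In myofibroblast-like cells Col7a1, the chain of anchoring fibrils, was 80.4 and 34.4 CPM, 2.34-fold (2.14 to 2.56) higher in Tom positive cells, and Col12a1 1.59-fold (1.56 to 1.61) higher, 2 of 23 chains against 0.802% of features, and 0 were lower, against 1.3%. Both fell below the limit with a coarser clustering (log2 0.47 for Col7a1 and 0.45 for Col12a1). In the Cemip subset Col11a1 was 84.2 and 46.8 CPM, 1.80-fold (1.63 to 1.98) higher, 1 of 24 chains against 0.862%, and 0 were lower, against 1.78%. Its log2 difference was 0.27 with a finer clustering, below the limit. Tendon-like and fascia-like cells had 0 of 24 chains on either side, against 0.746% and 0.96% of features higher and 1.03% and 0.984% lower. In adventitia-like cells 2 of 25 chains, Col8a1 (630.5 and 367 CPM, 1.72-fold) and Col6a6 (15.7 and 9.75 CPM, 1.61-fold), were higher, against 2.45% of features. Another 2, Col24a1 (38.8 and 70.5 CPM, 1.82-fold) and Col28a1 (42.0 and 79.9 CPM, 1.90-fold), were lower, against 3.19%. The call on Col24a1 ended under other settings, with a log2 difference of -0.23 under a stricter cell filter in place of -0.85. The direction turned under another setting for Col28a1 (log2 0.20 with a finer clustering), Col6a6 (-0.63 with a looser cell filter) and Col8a1 (-0.078 with a stricter one). Cycling cells, with 60 in the Tom positive library, had 32.9 and 20.8 CPM of Col28a1 and 352 and 538 CPM of Col8a1, 1 chain past 1.5-fold each way against 3.54% and 3.69% of features.

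Collagen was also read against the reporter level within Tom positive fibroblasts. Cells with 500 CPM or more of tdTomato had a lower collagen share of UMIs than the rest in 4 of the 6 subsets and a higher one in 2. In myofibroblast-like cells it was 5.68% (86 cells) and 6.74% (168 cells). Fascia-like cells had 6.82% and 7.30%, the Cemip subset 9.85% and 10.4%, and cycling cells 5.49% (8 cells) and 6.26%. The order was the other way in tendon-like cells, with 8.30% in 42 cells and 7.77% in 406, and in adventitia-like cells, with 7.5% in 11 cells and 7.23% in 266. These cells come from 1 library, so no error between animals can be given.

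**Figure D5:**
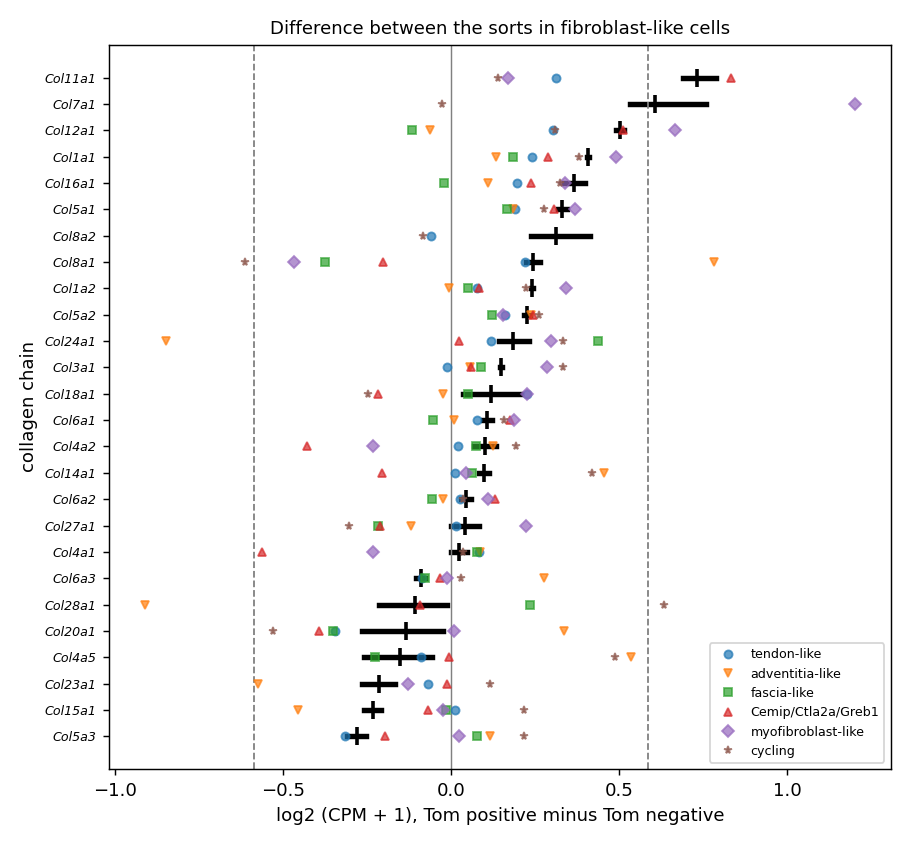
Log2 difference of Tom positive minus Tom negative for the 26 chains at 10 CPM or more in fibroblast-like cells. Black bars are the exact 95% counting interval, ticks the value, coloured symbols the 6 subsets and dashed lines the 1.5-fold limits. Col11a1 and Col7a1 lie past the upper limit and no chain past the lower.

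Outside fibroblasts the sorts could be compared in classes with at least 100 cells in each library. Endothelial cells had 10 of 19 chains lower and 0 higher in Tom positive cells, against 7.52% and 4.8% of 9048 features. Of the 10, 8 were chains that were not above carry-over in this class, such as Col3a1 at 399 and 905 CPM (2.27-fold lower). The carry-over scale of this class was itself lower in the Tom positive library, 1.64% against 4.44%, and its part in these differences was not tested. The other 2 were Col13a1, at 41.1 and 91.7 CPM (2.23-fold lower, 1.93 to 2.57), and Col27a1, at 11.1 and 20.3 CPM. Of the 117 Tom negative endothelial cells, 29 were in the sub-cluster with the most Col13a1, and of the 464 Tom positive cells, 38, and within it Col13a1 stood at 237 and 204 CPM. In the sub-cluster led by Hist1h2ap, Pclaf and Ube2c (32 and 14 cells) it was lower in the Tom positive library, at 38.8 and 161.7 CPM, and in the one led by Cd74, C1qa and Arg1 (7 and 5 cells) at 5.19 and 142 CPM. The remaining sub-clusters went either way. Col13a1 was 51.9 and 38.5 CPM in the one led by Nts, Gja5 and Nebl. It was 9.08 and 12.5 CPM in the one led by Chga, Pgf and Sntg2. The part of sub-cluster makeup in the difference was not tested. The reporter level in endothelial cells was 209 and 102 CPM. Col4a1, Col4a2 and Col18a1 did not pass, and the network chains summed to 4937 and 5127 CPM. With stricter minimums of genes and UMIs per cell, 5 chains were lower in place of 10.

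In phagocytes 1 of 13 chains, Col6a2, was lower (1.55-fold, 1.13% of features) and 0 higher (1.03%). In neutrophils 2 of 17 chains, Col15a1 and Col18a1, were higher (35.4% of features) and 2, Col6a3 and Col5a3, lower (5.69%), in a class whose median feature was 0.38 higher on the log2 scale. Mural, lymphatic and carcinoma-like cells had fewer than 100 cells in a library, and their values are given above without a call.

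For the genes around the chains, a list of 41 genes that modify, fold, cut, crosslink or bind collagen was set beside the chains. Of 39 measured, 25 were highest in fibroblast-like cells in both libraries, against 8.5% of all features. Serpinh1, the collagen chaperone HSP47, was 1711 and 1915 CPM there and 43.5 and 92.0 CPM in phagocytes. All 6 folding and export genes were highest in fibroblast-like cells, where 8.5% of all features were, as were Lox (1189 and 1132 CPM), the main crosslinking enzyme, Loxl1 and Loxl3. Bmp1 (506 and 518 CPM) and Pcolce (848 and 828 CPM), which cut procollagen and enhance that cut, were too. Of the 15 prolyl and lysyl hydroxylation genes 9 were, against the same 8.5%. P4ha1 was highest in neutrophils, at 413 and 587 CPM against 177 and 214 CPM in fibroblast-like cells. Plod1 was highest in lymphatic (180 and 194 CPM) and P3h4 in carcinoma-like cells (72.3 and 72.1 CPM). In the Tom negative library these leads were small and rested on 34 lymphatic and 42 carcinoma-like cells. Endothelial cells there had 188 CPM of Plod1 and fibroblast-like cells 64.5 CPM of P3h4. The propeptide cleavage gene Tll1 was highest in endothelial cells (280 and 112 CPM).

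Some of the listed genes were highest in vascular cells. P3h2, a prolyl 3-hydroxylase that acts on type IV collagen, was 184 and 177 CPM in endothelial, 121 and 76.8 CPM in mural and 5.71 and 2.92 CPM in fibroblast-like cells. Loxl2, a crosslinker of type IV collagen, was highest in mural cells at 245 and 226 CPM, and the collagen-binding integrin gene Itga1 was 823 and 844 CPM there. Collagen receptors were split by class: Ddr2 was 206 and 249 CPM in fibroblast-like cells, and Ddr1 (62.3 and 60.3 CPM) and Itga2 (163 and 215 CPM) were highest in carcinoma-like cells. Lair1, an inhibitory collagen receptor of leukocytes, was highest in phagocytes at 76.8 and 68.3 CPM. Between the sorts in fibroblast-like cells 0 of 35 listed genes were higher and 1 lower, Pcolce2 (37.7 and 62.8 CPM, a log2 difference of -0.72), against the same 0.772% and 1.24% of features.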

How the data were processed

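Stromal cells of 2 sorts, Tom positive and Tom negative, were profiled with 10x Genomics 3′ v3.1 chemistry, 1 library each. The files are the deposited UMI counts per feature and barcode, for which the submitters' processing notes name Cell Ranger 7.0.1 and the mm10 build. Barcodes with at least 500 genes, 1000 UMIs and at most 10% mitochondrial UMIs were kept, and doublets called by Scrublet in scanpy 1.11.5 were removed (63 and 97). The kept cells held 91.4% and 91.7% of all UMIs, with a median of 24191 and 20610.5 per cell.

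Cells were clustered by the Leiden method (resolution 1, 2000 variable genes, 30 components, 15 neighbours) without the collagen chains, giving 26 clusters. A cluster was named when at least 3 markers of a class reached 50 CPM and the list's mean log2 level was at least 1 above that of the median cluster, and it took the class with the largest share of markers detected. Clusters with over 50% doubted barcodes were left out (276 and 1202 cells). The naming limits were chosen once the data had been seen, and the members, marker lists and gene lists were chosen with earlier results of these data known. Counts were summed per class and library and divided by all UMIs. Differences between the sorts are of log2 CPM plus 1 and were called past 1.5-fold at 10 CPM or more in either library. Chains are all named where a value is given. Of the biosynthesis list, up to 4 genes of each role with the highest level in fibroblast-like cells, and any highest elsewhere, could be named, and clusters are described by leading genes that are not collagens. With 1 library per group no test was made, and intervals are exact Poisson, conditional or binomial 95% intervals. Classes with under 100 cells in a library were not compared between the sorts. Other settings tried were cell filters, doublets kept, doubted barcodes removed, collagens used in clustering, resolutions, TMM scaling, minimum levels, pseudocounts and equal weights. The steps were tested on simulated data. Python 3.11.15, numpy 2.4.6, scipy 1.17.1, pandas 2.3.3, scikit-learn 1.9.0, igraph 0.11.9 and matplotlib 3.10.9 were used.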

Additional observations from a re-analysis of the deposited data

Results flagged for a closer look

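Values of 2 chains moved in opposite directions between the sorts in different fibroblast subsets. Col28a1 had a log2 difference (Tom positive minus Tom negative) of 0.63 in cycling cells and -0.91 in adventitia-like cells. Col8a1 had 0.78 in adventitia-like cells and -0.61 in cycling cells. The adventitia-like values turned under other settings, to 0.20 for Col28a1 at a clustering resolution of 1.5 and to -0.078 for Col8a1 with a stricter cell filter, so that the opposition was then gone. The difference between subsets was not tested, since each subset has 1 library per sort, and the cycling subset had 60 Tom positive cells.

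Col6a5, a type VI chain below 10 CPM in each named class and subset, was at 91.9 CPM (Tom positive) and 140.8 CPM (Tom negative) in the clusters left out of the classes. It was highest in clusters led by Wt1, Saa3 and Nkain4 (325 and 342 CPM in 61 and 291 cells) and by Sult1e1, Inmt and Wt1 (483 and 273 CPM in 7 and 141 cells). Of the left-out cells, 221 of 276 and 1107 of 1202 carried doubted barcodes, and their part in the value was not tested. The 3-fold limit behind this entry was set after these values were seen.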

How the results depend on the processing

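Of 340 recomputed counts of chains, 313 stayed within 1.5 times the reported count and 27 moved. Of 589 recomputed values of single chains, 406 stayed within their counting interval and 180 moved. Another 3, of differences that had passed 1.5-fold, changed direction. Turns of smaller differences were not counted apart, and some chains had them. In fibroblast-like cells the log2 difference ran from -0.25 to 0.072 for Col15a1 and from -0.085 to 0.37 for Col8a2. Chains highest in fibroblast-like cells numbered 13 to 17, in mural cells 5 to 7 and in endothelial cells 2 to 3 over the alternatives, and chains called between the subsets 20 to 28. With a stricter cell filter (1000 genes and a higher minimum of UMIs), 1 chain was highest in lymphatic cells (also 1 without doubted barcodes, with doubted barcodes removed after clustering, at a Leiden resolution of 0.5 and with TMM factors) and 1 in carcinoma-like cells, 5 endothelial chains were lower in Tom positive cells, and 0 phagocyte and 0 neutrophil chains were lower. In fibroblast-like cells 1 chain was higher at a resolution of 0.5, with a pseudocount of 10 CPM and with subsets weighted equally. With TMM factors 2 endothelial chains were higher, 2 phagocyte chains lower, 1 neutrophil chain higher and 8 lower. Phagocyte chains lower numbered 3 at a mitochondrial limit of 5% and 0 with doublets kept, without doubted barcodes and as a mean over cells. Neutrophil chains higher numbered 1 with a minimum of 200 genes, without doubted barcodes and at 20 CPM, and 4 at 5 CPM, and 1 was lower at a mitochondrial limit of 20%. In phagocytes 1 chain was above carry-over at a resolution of 0.5 and at 5 CPM. In adventitia-like cells the log2 difference turned to 0.20 for Col28a1 at a resolution of 1.5, to -0.63 for Col6a6 with a minimum of 200 genes and to -0.078 for Col8a1 with the stricter cell filter. The cause was not tested. Col24a1 there ranged from -0.85 to -0.23. Col7a1 in myofibroblast-like cells ranged from 0.47 to 1.27, Col12a1 there from 0.45 to 0.70, Col11a1 in fibroblast-like cells from 0.36 to 0.81 and in the Cemip subset from 0.27 to 1.05. No value could be had where a subset or class was not found: adventitia-like cells at a mitochondrial limit of 20% and without doubted barcodes, the Cemip and cycling subsets with a minimum of 200 genes, and tendon-like, Cemip, cycling and carcinoma-like cells at a resolution of 0.5. The doubted barcodes were removed after clustering as an alternative chosen after seeing the data. No paired analysis was possible because each group has 1 library and the labels carry no replicate numbers, and for the same reason no replicate could be left out. Depth limits the low chains most in the Tom negative lymphatic class, where 3 UMIs correspond to 7.87 CPM.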
